A study of Mus musculus with 6 samples.

Results

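Mitochondrial ribosomal proteins were followed on the array by name: a probe was a member where its listed target was MRPL or MRPS followed by a number, with or without the letter A, B or C. The rule took 73 of the 30854 target names on the array, 45 of the large subunit and 28 of the small subunit, and these were read by 125 of 45281 probes. The RNA came from C2C12 myotubes, a mouse muscle line whose myoblasts fuse into multinucleated fibres in low serum. Scramble myotubes had received 60 nM of a control siRNA and siDJ-1 myotubes 60 nM of siRNA against DJ-1, encoded by Park7. In both groups differentiation began 48 hours after transfection and lasted 4 days. Each group had 3 arrays on the same BeadChip, and nothing in the labels says whether replicates came from separate cultures, so that p-values measure only the spread between these samples.

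The mitochondrial ribosome makes the few proteins encoded by mitochondrial DNA, all of them subunits of the respiratory chain and ATP synthase. Its RNAs are transcribed in the mitochondrion, whereas its proteins are encoded in the nucleus, translated in the cytosol and imported, so that assembly needs both genomes. Muscle fibres rely heavily on this machinery, and inherited defects of several of its proteins cause cardiomyopathy, muscle weakness or encephalopathy.

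The target of the siRNA, Park7, was read by 1 probe, with log2 normalized signals of 13.59, 13.37 and 13.63 in Scramble and 12.48, 12.49 and 12.15 in siDJ-1 myotubes. The groups did not overlap, and the siDJ-1 signal was 44.7% of the Scramble signal (log2 fold change -1.16, SE 0.14, adjusted p = 0.00344). The labelled cell type was checked against 14 myotube genes, each of which was detected. Among undifferentiated and cycling cell markers Pax7, a satellite cell factor, was the only gene not detected on any array. Of the 8 genes in this list 6 were tested, by 9 probes. The brightest, Cdk1, had normalized signals of 1456, 1449 and 1272 in Scramble and 1634, 1822 and 1686 in siDJ-1 myotubes. The summed normalized signal of the myotube markers was 342580, 336896 and 333025 in Scramble and 281989, 295564 and 267757 in siDJ-1 myotubes, with Acta1 as the brightest gene.

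After a filter on detection, 105 of the 125 member probes, covering 67 of the 73 genes, were tested. A probe was tested where its signal stood above the negative control beads at a detection p under 0.05 on at least 3 arrays. Of the 20 probes left out, 15 were detected on no array and 5 on 1 or 2 arrays. Mrpl19, Mrpl21, Mrpl32, Mrpl35, Mrpl45 and Mrps14 had no tested probe. Both probes of Mrpl45, the protein that anchors the ribosome to the inner membrane near its exit tunnel, were at background on each array.

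Dj1 knockdown myotubes had lower signal for 24 of the 105 tested member probes and higher signal for 3, at a Benjamini-Hochberg adjusted p under 0.05 over every probe tested. Over all 17890 tested probes 13.6% were called lower, 16.5% were called higher and 30.1% were called in either direction, against 22.9% lower and 2.86% higher among the members. The member median was a log2 fold change of -0.12, beside 0.05 over all tested probes, and 77 of the 105 were below 0. Member probes spanned -0.84 to 0.47, so that none reached a 2-fold change. With each array shifted to its 75th percentile in place of quantile normalization, the calls were 15 lower (14.3%, beside 11.9% of all tested probes) and 7 higher (6.67%, beside 18.3%), and the median was -0.07, beside 0.07 over all tested probes. Each of the 27 called probes kept its sign under every alternative tried. In bulk RNA, fewer cells of a type and less RNA per cell cannot be told apart.

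The number of falls depended on which arrays were used. It was 21, 12 and 15 without Scramble replicates 1, 2 and 3 and 7, 16 and 9 without siDJ-1 replicates 1, 2 and 3. In that order these were 20%, 11.5%, 14.6%, 6.73%, 15.4% and 8.65% of the member probes tested, beside 13.7%, 9.48%, 10.1%, 6.91%, 11.5% and 7.47% of all probes tested. Without siDJ-1 replicate 1 the share of members called lower was therefore no larger than that of the whole array. The member median stayed below 0 with each array left out, from -0.17 to -0.12.

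**Figure D1:**
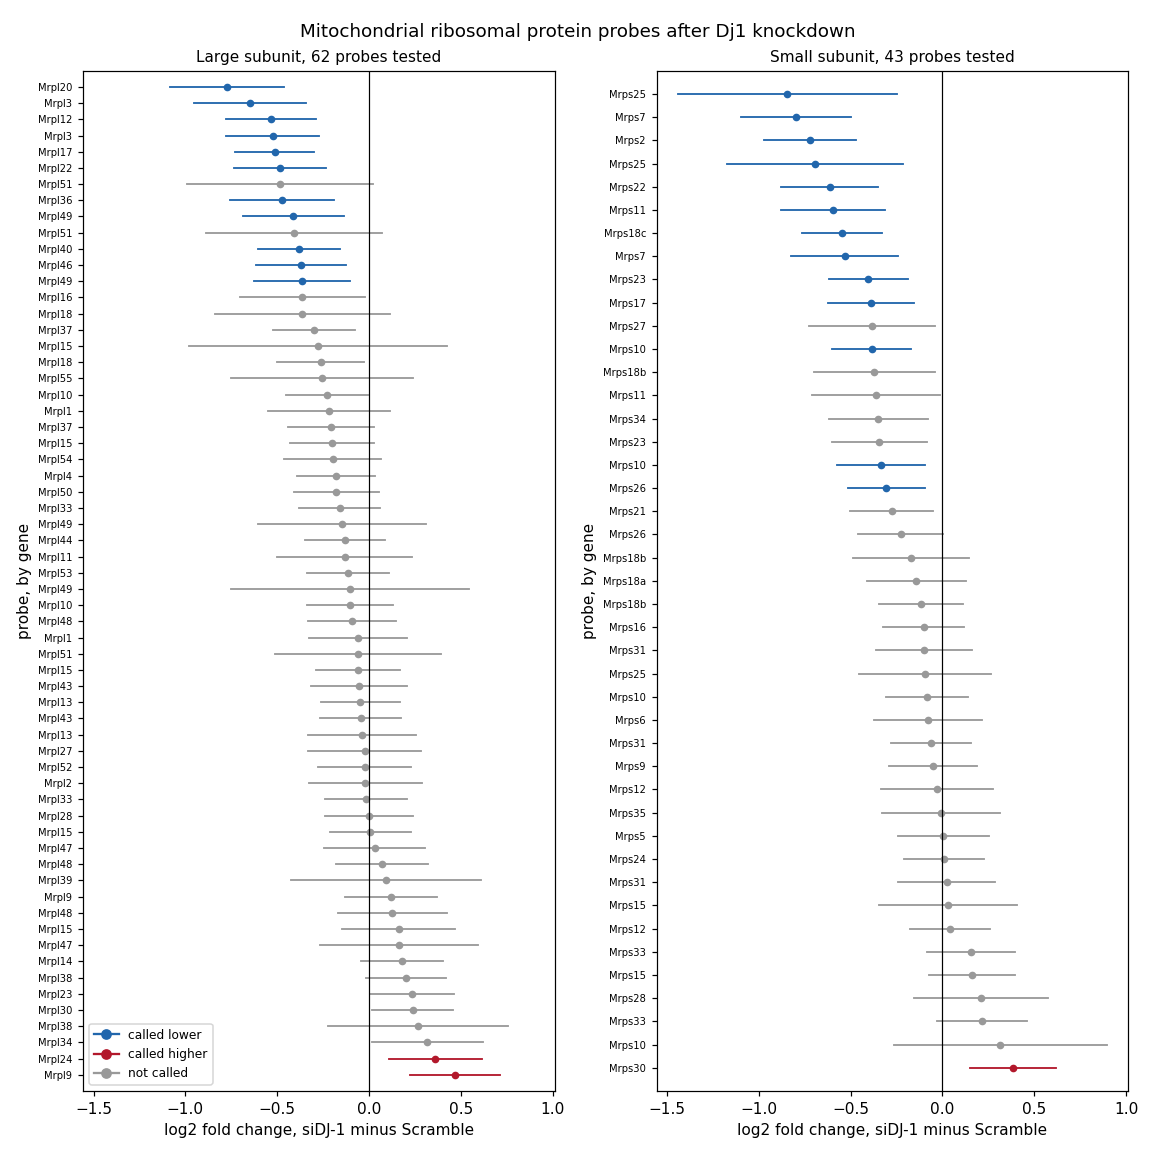
Log2 fold change (siDJ-1 minus Scramble, x axis) of each tested member probe, by gene (y axis), with its 95% interval as a bar; the 62 large subunit probes are on the left and the 43 small subunit probes on the right. Blue probes were called lower (24), red probes higher (3) and grey probes were not called (78).

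The shift was visible on each array. Taken as its deviation from each probe's own mean over the 6 arrays, the median member stood at 0.06, 0.12 and 0.07 in Scramble and at -0.09, -0.05 and -0.07 in siDJ-1 myotubes. All 3 Scramble arrays were thus above the siDJ-1 arrays. The same quantity over all tested probes was -0.03, -0.01 and -0.01 in Scramble and 0.02, 0.03 and 0.02 in siDJ-1 myotubes. By probe, the siDJ-1 arrays were all below the Scramble arrays for 43 of 105 members and all above them for 11. Over all tested probes these shares were 22% and 26.5%.

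Array quality moved with the groups. The standard error over beads of the median member probe was 5.74%, 4.05% and 5.11% of its signal in Scramble and 4.07%, 3.54% and 3.73% in siDJ-1 myotubes, a small overlap between Scramble replicate 2 and siDJ-1 replicate 1. Over the whole array 16985, 17399 and 18179 probes were detected in Scramble and 18704, 18857 and 18408 in siDJ-1 myotubes. Between 103 and 107 member probes were detected on each array. Myotube markers moved with the groups as well, with 12 of 26 tested probes called lower and 2 higher (median -0.29, and -0.15 with the 75th percentile shift). The part of bead noise and of the muscle markers in the member shift was not tested.

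The small subunit holds the decoding site, where messenger and transfer RNA pair. Of its 43 tested probes 13 were called lower (30.2%, beside 13.6% of all tested probes) and 1 higher (2.33%, beside 16.5%). The median log2 fold change was -0.14. Mrps7, a relative of a bacterial protein that organizes the head of the small subunit, had signals of 11.49, 11.82 and 11.64 in Scramble and 10.72, 10.97 and 10.87 in siDJ-1 myotubes. The groups were well apart, and siDJ-1 signal was 57.6% of Scramble (log2 fold change -0.80, SE 0.13, adjusted p = 0.00656). The other Mrps7 probe read 9.06, 9.31 and 9.32 against 8.62, 8.85 and 8.63, again without overlap (log2 fold change -0.53, adjusted p = 0.0203). That second call was lost in 4 of the 6 fits that each left out 1 array.

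Mrps2 is related to a bacterial protein between the head and body of the small subunit. Its signals were 8.28, 8.02 and 8.11 in Scramble and 7.42, 7.44 and 7.39 in siDJ-1 myotubes. The siDJ-1 arrays lay close together, below every Scramble array (log2 fold change -0.72, SE 0.10, adjusted p = 0.00537; -0.45 without background correction). Mrps22, a protein with no bacterial relative that is mutated in human mitochondrial disease, read 10.30, 10.55 and 10.41 against 9.75, 9.92 and 9.76. Its groups did not overlap either (log2 fold change -0.61, SE 0.11, adjusted p = 0.00972).

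Mrps11 belongs to the platform of the small subunit by its bacterial relative. The called probe read 8.94, 9.17 and 8.84 in Scramble and 8.29, 8.42 and 8.45 in siDJ-1 myotubes (log2 fold change -0.60, adjusted p = 0.0132), and its call was lost without siDJ-1 replicate 1 (adjusted p = 0.0559). The other Mrps11 probe was also lower on each siDJ-1 array but was not called (-0.36, adjusted p = 0.108).

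Mammals carry 3 nuclear paralogues of a single bacterial small subunit protein, Mrps18a, Mrps18b and Mrps18c, which sit at different places in the ribosome, Mrps18a within the large subunit. Mrps18c read 12.01, 11.93 and 11.95 in Scramble and 11.48, 11.39 and 11.37 in siDJ-1 myotubes. It fell clear of the Scramble range (log2 fold change -0.55, SE 0.09, adjusted p = 0.00767). Mrps18a, at 10.66, 10.93 and 10.67 against 10.69, 10.58 and 10.57, overlapped between groups and was not called (-0.14, 95% interval -0.41 to 0.13). The 3 probes of Mrps18b gave -0.12, -0.17 and -0.37, none of them called. Whether the paralogues differed from each other in their response was not tested.

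Mrps25 had the lowest log2 fold change of any tested member probe, with a wide spread between Scramble arrays. A probe at 9.34, 8.70 and 8.41 in Scramble and 8.17, 8.02 and 7.72 in siDJ-1 myotubes gave -0.84 (SE 0.25, adjusted p = 0.0438). Another, at 7.14, 7.71 and 7.77 against 6.91, 7.03 and 6.60, gave -0.69 (SE 0.20, adjusted p = 0.0414; -0.37 without background correction). Scramble replicate 1 was the highest of its group on the former and the lowest on the latter. A further Mrps25 probe gave -0.10 and was not called, and each of the 2 calls was lost in 5 of the 6 fits that left out an array.

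Smaller falls in the small subunit were called for Mrps23 (-0.40), Mrps17 (-0.39), Mrps10 (-0.38 and -0.34 by 2 probes) and Mrps26 (-0.30). Each of these 5 calls was lost in 3 or more of the 6 fits that left out an array. With the 75th percentile shift the calls of Mrps23, Mrps17, Mrps26 and the second Mrps10 probe were lost (adjusted p from 0.0715 to 0.19), and Mrps26 moved to -0.19. The second probe of Mrps23 gave -0.34 and narrowly missed the threshold (adjusted p = 0.0534). The remaining Mrps10 probes gave -0.08 and 0.32, the latter detected on 1 Scramble and 2 siDJ-1 arrays. The other Mrps26 probe gave -0.23. Mrps12, the relative of the bacterial protein at the decoding centre, had probes at -0.03 and 0.04 and its groups overlapped on both. Mrps12 was chosen for mention after its values were seen.

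**Figure D2:**
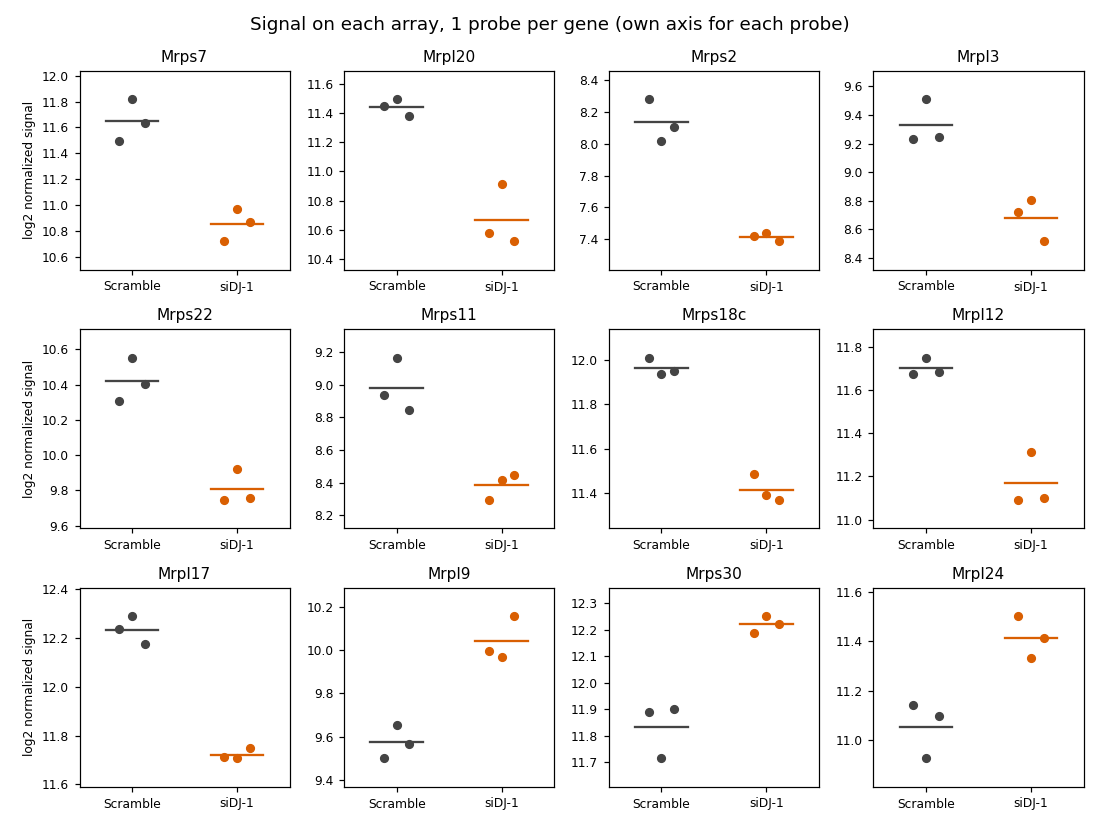
Log2 normalized signal (y axis, an own scale for each probe) on the 3 Scramble and 3 siDJ-1 arrays for a probe each of 12 genes, with a line at the group mean. Mrps7, Mrpl20, Mrps2, Mrpl3, Mrps22, Mrps11, Mrps18c, Mrpl12 and Mrpl17 were lower on all 3 siDJ-1 arrays, and Mrpl9, Mrps30 and Mrpl24 were higher on all 3.

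The large subunit forms peptide bonds and carries the tunnel through which the new chain leaves. Of its 62 tested probes 11 were called lower and 2 higher, with a median of -0.11 (-0.06 with the 75th percentile shift). These were 17.7% lower and 3.23% higher, beside 13.6% and 16.5% of all tested probes. Mrpl20 read 11.45, 11.50 and 11.38 in Scramble and 10.58, 10.91 and 10.52 in siDJ-1 myotubes. Although siDJ-1 replicate 2 was the highest of its group, it remained below every Scramble array, and the group mean was 58.5% of Scramble (log2 fold change -0.77, SE 0.13, adjusted p = 0.0078).

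Mrpl3, whose mutation causes cardiomyopathy in infants, was lower by both of its tested probes. The first read 9.23, 9.51 and 9.25 in Scramble and 8.72, 8.80 and 8.52 in siDJ-1 myotubes (log2 fold change -0.65, SE 0.13, adjusted p = 0.0128). The other read 10.75, 10.95 and 10.995 against 10.34, 10.44 and 10.34 (log2 fold change -0.52, SE 0.11, adjusted p = 0.0137). Neither probe showed overlap between the groups. The call of the latter was lost without siDJ-1 replicate 1 (adjusted p = 0.0569) or siDJ-1 replicate 3 (adjusted p = 0.0508).

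Mrpl12 forms the stalk that recruits translation factors and has also been reported to bind the mitochondrial RNA polymerase. Its signals were 11.67, 11.75 and 11.68 in Scramble and 11.09, 11.31 and 11.10 in siDJ-1 myotubes. The Scramble arrays were tightly grouped and above all siDJ-1 arrays (log2 fold change -0.53, SE 0.10, adjusted p = 0.0121), and the call was lost without siDJ-1 replicate 1 (adjusted p = 0.0542).

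Mrpl17 read 12.24, 12.29 and 12.18 against 11.71, 11.71 and 11.75, a fall to 70.1% of Scramble with both groups narrow (log2 fold change -0.51, SE 0.09, adjusted p = 0.00892). Mrpl22, at the wall of the exit tunnel, read 10.78, 10.92 and 10.81 against 10.38, 10.46 and 10.23 (log2 fold change -0.48, adjusted p = 0.0174). Its call was lost without siDJ-1 replicate 1 (adjusted p = 0.0601) or siDJ-1 replicate 3 (adjusted p = 0.0587).

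Further falls in the large subunit were called for Mrpl36 (-0.48), a small zinc-binding protein, and for Mrpl49 (-0.41 and -0.36 by 2 probes, the latter -0.17 and not called without background correction). The remaining Mrpl49 probes gave -0.10 and -0.15 and overlapped between groups. Mrpl40 (-0.38) and Mrpl46 (-0.37), which both lie in the central protuberance, were lower as well and are outside the rule for named genes, so that they were chosen after their values were seen. The calls of Mrpl36, Mrpl49, Mrpl40 and Mrpl46 were each lost in 4 or more of the 6 fits that left out an array, and all of them with the 75th percentile shift (adjusted p from 0.0511 to 0.0805). Mrpl44, also mutated in human cardiomyopathy, read 9.48, 9.52 and 9.51 against 9.35, 9.45 and 9.32. All siDJ-1 arrays were lower, but the difference was small and not called (log2 fold change -0.13, 95% interval -0.35 to 0.09, adjusted p = 0.314).

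The 3 members called higher all have a place in the large subunit, since Mrps30 is named for the small subunit but was found in the large subunit by structural work. Mrpl9 read 9.50, 9.65 and 9.57 in Scramble and 10.00, 9.97 and 10.16 in siDJ-1 myotubes (log2 fold change 0.47, SE 0.10, adjusted p = 0.0178), whereas its other probe gave 0.12 and was not called. Mrps30 read 11.89, 11.72 and 11.90 against 12.19, 12.25 and 12.22 (log2 fold change 0.39, SE 0.10, adjusted p = 0.028). Mrpl24, at the tunnel exit, read 11.14, 10.92 and 11.10 against 11.50, 11.33 and 11.41 (log2 fold change 0.36, SE 0.11, adjusted p = 0.0435). Although each of these probes separated the groups, of the 6 fits that left out an array 4 kept the Mrpl9 call, 2 the Mrps30 call and 1 the Mrpl24 call.

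With Mrps30 and Mrps18a counted in the large subunit, as their position has it, 13 of 41 small subunit probes were lower and 0 higher (median -0.17). In the large subunit 11 of 64 were then lower and 3 higher (median -0.11). The shares lower were 31.7% and 17.2% in the small and large subunit, and those higher 0% and 4.69%. Over all tested probes 13.6% were lower and 16.5% higher. Whether the subunits differed was not tested. Grouped by descent, 15 of 64 probes for proteins with a bacterial relative were lower and 2 higher (median -0.11). Among proteins specific to mitochondria 9 of 41 were lower and 1 higher (median -0.13). The 2 groups by descent thus had similar shares, 23.4% and 22% lower and 3.12% and 2.44% higher. This grouping was chosen after the values were seen.

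Of the 67 tested genes 26 had 2 or more tested probes. The probes of 21 of them had the same sign, and those of Mrpl15, Mrpl48, Mrps10, Mrps12 and Mrps31 did not. In 2 genes, Mrpl3 and Mrps7, each tested probe was called, and in 7 genes, Mrpl9, Mrpl49, Mrps10, Mrps11, Mrps23, Mrps25 and Mrps26, some were and others were not. The widest gap was that of Mrps25, from -0.84 to -0.10. Mrpl15, with 5 tested probes, ranged from -0.28 to 0.16 with 0 called. After averaging the tested probes of each gene, 18 of 67 genes were lower and 2 higher, beside 14.5% lower and 18.4% higher over all 12771 genes, and the member median was -0.13. The fit by gene lost Mrpl49, Mrps10 and Mrpl9 and gained Mrps34 (-0.35, adjusted p = 0.0484), a small subunit protein without bacterial relative. Mrps34 had 1 tested probe, so that averaging left its values unchanged, and the fit by probe did not call it (adjusted p = 0.0567).

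**Figure D3:**
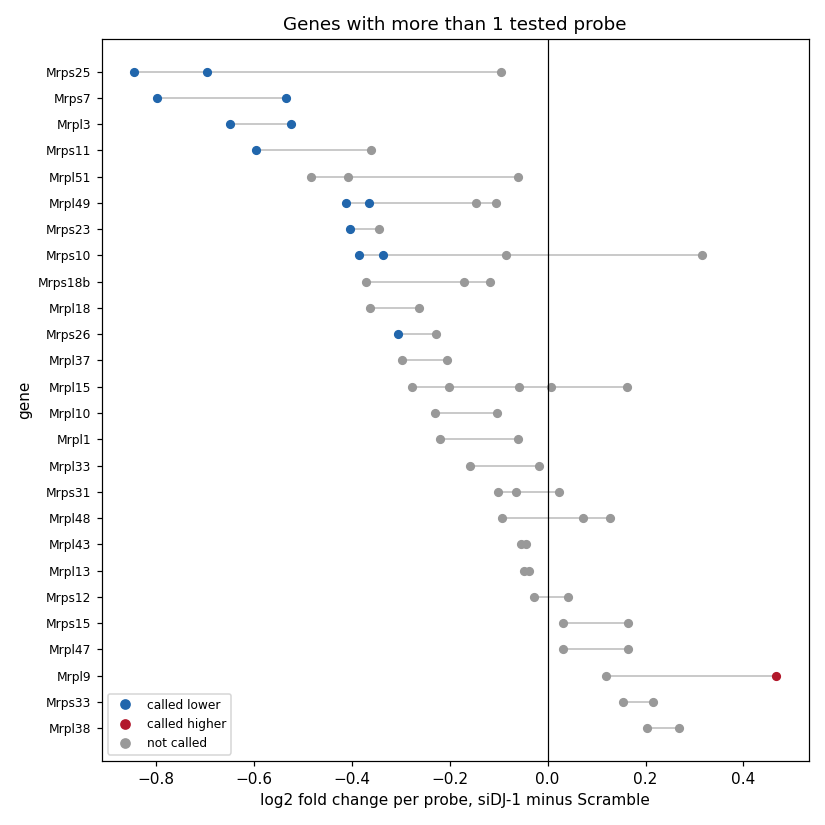
Log2 fold change (x axis) of each tested probe of the 26 genes (y axis) with more than 1, with a grey line over the range within a gene. Blue probes were called lower, red higher and grey not called; probes of Mrps25 ran from -0.84 to -0.10, those of Mrps7 from -0.80 to -0.53.

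For 60 of the 78 tested member probes that were not called the 95% interval of the fold change lay within 1.5-fold of no change, and for 18 it reached further. The median SE of the log2 fold change was 0.11 for the members and 0.14 for all tested probes, and the number of arrays limits this precision.

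Promoter windows were read for the members because 19 genes were called lower. RefSeq windows (GRCm38.p6) of 300 bases, 250 before and 50 after a start, were found for 64 of the 73 genes, 70 windows in all. They were searched on both strands for GCGCATGC (core of the NRF1 motif), CCGGAAGT (ETS, the family of GABPA), AAGATGGC (YY1) and CCAATC (the CCAAT box), of which matches of different motifs can share at most 2 bases. At least 1 of the first 3 was found in 28 of 70 member windows (40%) and in 8.83% of all 32851 windows. Member windows held GCGCATGC in 11.4%, CCGGAAGT in 17.1%, AAGATGGC in 15.7% and CCAATC in 20%, against 2.71%, 3.89%, 2.75% and 16.1% of all windows. By call, 10 of 19 windows of genes with a fall, 15 of 43 of genes not called and 1 of 3 of genes with a rise held at least 1 of the first 3, while CCAATC was in 1 of 19, 11 of 43 and 1 of 3. These are counts of windows and not of genes, and windows of 1 gene can overlap. Mrpl2, not called, had windows starting at 46645971, 46645979 and 46645987 on chromosome 17, each counted as holding CCAATC. Whether these shares differ was not tested, and a match describes letters only.

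Of the 7 genes with a fall that was called with each array left out in turn, Mrps7, Mrpl3, Mrps22, Mrps18c and Mrpl17 held such a match, while the windows of Mrpl20 and Mrps2 did not. The 5 windows are shown 5′ to 3′ in the direction of the gene, with capitals on the match. They lie at chr11:115603890-115604189 (plus strand) for Mrps7, chr9:105053018-105053317 (plus strand) for Mrpl3, chr9:98601630-98601929 (minus strand) for Mrps22, chr5:100798509-100798808 (plus strand) for Mrps18c and chr7:105811038-105811337 (minus strand) for Mrpl17. The capitals are the YY1 letters in Mrps7, the ETS letters in Mrpl3 and Mrps22, the ETS letters on the other strand in Mrps18c and the NRF1 core in Mrpl17.
Mrps7: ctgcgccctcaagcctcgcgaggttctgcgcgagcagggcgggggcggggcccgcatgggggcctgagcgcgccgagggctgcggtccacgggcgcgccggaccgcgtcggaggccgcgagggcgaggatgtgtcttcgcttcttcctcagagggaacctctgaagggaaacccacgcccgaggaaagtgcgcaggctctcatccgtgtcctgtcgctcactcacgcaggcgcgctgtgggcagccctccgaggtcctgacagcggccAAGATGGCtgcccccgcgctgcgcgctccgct
Mrpl3: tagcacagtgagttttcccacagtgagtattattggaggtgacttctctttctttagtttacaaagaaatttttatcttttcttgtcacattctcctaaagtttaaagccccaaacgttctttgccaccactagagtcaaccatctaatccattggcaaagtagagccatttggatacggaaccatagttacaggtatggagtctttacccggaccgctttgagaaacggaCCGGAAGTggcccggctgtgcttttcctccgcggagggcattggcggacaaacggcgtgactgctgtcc
Mrps22: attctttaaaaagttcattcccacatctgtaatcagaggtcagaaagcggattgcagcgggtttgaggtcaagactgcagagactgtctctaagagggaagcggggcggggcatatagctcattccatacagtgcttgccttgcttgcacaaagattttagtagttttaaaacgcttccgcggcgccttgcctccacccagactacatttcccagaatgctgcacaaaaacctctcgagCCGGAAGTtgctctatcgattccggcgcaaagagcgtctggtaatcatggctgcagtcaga
Mrps18c: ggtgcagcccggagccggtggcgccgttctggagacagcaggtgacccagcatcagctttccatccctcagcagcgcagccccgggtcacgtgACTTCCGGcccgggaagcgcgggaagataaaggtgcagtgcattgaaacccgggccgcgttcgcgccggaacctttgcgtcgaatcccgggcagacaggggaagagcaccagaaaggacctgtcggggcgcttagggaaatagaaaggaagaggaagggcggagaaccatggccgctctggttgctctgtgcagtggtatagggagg
Mrpl17: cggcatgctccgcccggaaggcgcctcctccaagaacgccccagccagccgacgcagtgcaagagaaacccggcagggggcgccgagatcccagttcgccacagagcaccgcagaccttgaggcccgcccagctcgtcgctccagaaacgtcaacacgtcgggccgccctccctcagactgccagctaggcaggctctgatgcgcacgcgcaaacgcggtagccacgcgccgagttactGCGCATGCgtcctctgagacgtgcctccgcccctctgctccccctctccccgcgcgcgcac

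Mrps11 and Mrpl46 are a head-to-head pair whose starts lie 42 bases apart on opposite strands. Both were called lower, Mrps11 at -0.60 and Mrpl46 at -0.37 (adjusted p = 0.0368), the latter from signals of 9.74, 9.84 and 9.90 against 9.43, 9.57 and 9.38. The window of Mrps11, at chr7:78782881-78783180 (plus strand), is shown with the YY1 letters of the other strand in capitals. These letters lie outside the window of Mrpl46, which held none of the 4 motifs.
Mrps11: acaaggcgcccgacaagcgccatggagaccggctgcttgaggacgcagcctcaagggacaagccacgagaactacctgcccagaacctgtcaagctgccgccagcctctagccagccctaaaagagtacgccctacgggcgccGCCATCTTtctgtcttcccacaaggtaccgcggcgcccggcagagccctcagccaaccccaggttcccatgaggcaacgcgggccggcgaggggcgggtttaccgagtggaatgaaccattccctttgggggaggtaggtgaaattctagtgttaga

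Altogether 24 member genes had a neighbour starting within 1000 bases on the opposite strand, pointing away. Of 24 such neighbours, Mrps11 and Mrpl46 among them, 19 were tested by 27 probes, of which 6 were lower, 1 probe each of Mrps11 and Mrpl46 included, and 4 higher, with a median of 0.03, beside 13.6% lower and 16.5% higher over all tested probes. Mrps7 and Gga3 start 224 bases apart, and Gga3 gave -0.20 without a call. Ppp1r10, which encodes a regulatory subunit of a protein phosphatase, starts 756 bases from Mrps18b and gave -1.19 and -1.48 (adjusted p = 0.0031 and 0.00312), while Mrps18b was not called. Twnk, the mitochondrial helicase, starts 116 bases from Mrpl43 and was higher by 1 probe (0.77, adjusted p = 0.0169). Its other tested probe gave 0.39 and was not called (adjusted p = 0.122). Both Mrpl43 probes were near 0 (-0.04 and -0.05). These pairs were chosen after their values were seen.

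Other genes of mitochondrial translation were read beside the members. Ribosomal proteins under other names gave 0 calls among 3 large subunit probes and 1 fall among 7 small subunit probes, Ptcd3 (-0.59, adjusted p = 0.0274). Of the translation factors, 4 of 22 probes were lower (18.2%, beside 13.6% of all tested probes) and 2 higher (9.09%, beside 16.5%). Their median was -0.23 (-0.12 with the 75th percentile shift and no background correction). Lrpprc, which stabilizes mitochondrial messenger RNA, read 8.02, 7.48 and 7.97 against 6.93, 7.22 and 6.80 and was the lowest of them (-0.84, adjusted p = 0.0174), while its other probes gave -0.49 and -0.03 and were not called. Its partner Slirp (-0.50) and the factors of ribosome recycling Mrrf (-0.71) and Gfm2 (-0.57) were lower by 1 probe each, and their other tested probes, at -0.28, 0.15 and -0.36 in that order, were not called. The initiation factor Mtif3 was higher by a probe detected on 1 Scramble array and 3 siDJ-1 arrays (0.78, and 0.25 without background correction), whereas its other probe, detected on all 6 arrays, gave -0.01, and also higher was the membrane insertase Oxa1l (0.56). Without background correction Ptcd3, Lrpprc and Mrrf moved to -0.33, -0.47 and -0.32, and of the 6 fits that left out an array 2, 4 and 2 kept their calls. Slirp is outside the rule for named genes and was chosen after its values were seen.

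Assembly and rRNA modification factors split, with 5 of 32 probes lower and 4 higher (median 0.07, and 0.04 without background correction and from 0.03 to 0.12 with an array left out). These shares, 15.6% lower and 12.5% higher, were close to the 13.6% and 16.5% of all tested probes. Trub2, a pseudouridine synthase, had signals of 12.76, 12.58 and 12.67 in Scramble and 11.75, 11.86 and 11.58 in siDJ-1 myotubes. It was lower without overlap (log2 fold change -0.94, adjusted p = 0.00358). Rcc1l (-0.81), Noa1 (-0.49), Mrm1 (-0.44) and Mterf3 (-0.36) were lower too, the last pair outside the rule for named genes and chosen after their values were seen. Mterf4, which brings a methyltransferase to the large subunit, was higher by 2 probes (0.51 and 0.41), and Gtpbp10 (0.52) and Mtg1 (0.37), GTPases of large subunit assembly, by 1 probe each. Other tested probes of Noa1 (-0.53 and -0.30), Mterf4 (0.73), Gtpbp10 (0.25 and 0.32) and Mtg1 (0.29) were not called. Of the 6 fits that left out an array, 1 kept the call of Rcc1l, 1 that of the second Mterf4 probe, 1 that of Mtg1, 3 that of Noa1 and 0 that of Mterf3. Without background correction Rcc1l moved to -0.43 and Gtpbp10 to 0.27. The lowest value of the called Mtg1 probe over every alternative was 0.22. Its call was kept in 5 of the 9 alternatives that used every array.

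Genes of mitochondrial DNA upkeep and transcription had 4 of 20 probes higher and 2 lower (median 0.17, and 0.09 without background correction and 0.05 without a filter). These shares, 20% higher and 10% lower, were near the 16.5% and 13.6% of all tested probes. Polg2, the accessory subunit of the mitochondrial DNA polymerase, was higher by both called probes (0.86 and 0.85), with Twnk (0.77) and Polg (0.55). The other tested Twnk probe gave 0.39 and was not called. Tefm (-0.48), the transcription elongation factor, and Ssbp1 (-0.35, with another probe at 0.21) were lower, both calls being lost with the 75th percentile shift and kept in 1 and 0 of the 6 fits that left out an array. Without background correction the values of Twnk and Polg were 0.30 and 0.26. The lowest values of the called Polg2 probes over every alternative were 0.57 and 0.53. Among regulators of mitochondrial biogenesis 3 of 12 probes were higher (25%, beside 16.5% of all tested probes) and 0 lower (median 0.27). The rises were Gabpa (0.77) and 2 probes of Gabpb1 (0.93 and 0.72). In that order these calls were kept in 1, 1 and 3 of the 6 fits that left out an array, the other tested Gabpa probe gave -0.37 without a call, and the list median was 0.15 without background correction and 0.04 without a filter. Without background correction the 3 values were 0.37, 0.55 and 0.36. Gabpa and Gabpb1 form the ETS factor whose letters were searched above, and no link between them and the members was tested.

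Cytosolic ribosomal proteins had a median above 0 and mitochondrial ones a median below 0 under each scaling tried. Of 87 cytosolic tested probes 9 were called higher (10.3%) and 4 lower (4.6%), both below the shares of all tested probes (16.5% and 13.6%). The median log2 fold change was 0.16 (0.36 with the 75th percentile shift). However, the siDJ-1 arrays were all above the Scramble arrays for 45 of the 87 and all below them for 9. Over all tested probes these shares were 26.5% and 22%. Rpl22 (0.57) and Rpl21 (0.56) were among the rises, with Rpl37 (0.88) by a probe detected on 1 Scramble array and 3 siDJ-1 arrays, while its other probe gave -0.04. The falls included the muscle form Rpl3l (-1.22), Rps27a (-0.74) and Rpl7l1 (-0.71 and -0.60 by 2 probes). Rpl7l1, an Rpl7-like protein, was taken into this list by its name. Subunits of the respiratory chain and ATP synthase had 10 of 100 probes called lower and 3 higher, again below the called shares of all tested probes. Their median of -0.10 became 0.04 with the 75th percentile shift. For 43 of these 100 probes the siDJ-1 arrays were all below the Scramble arrays, and for 8 all above them. Over all tested probes these shares were 22% and 26.5%, and 43 of 105 members were all below. Ndufb8 (-0.96), Atp5j (-0.70) and the muscle form Cox7a1 (-0.66) had the deepest falls, though the other Ndufb8 probe gave -0.09, and Dmac2 (0.92), Dmac2l (0.67) and Ndufv3 (0.44) the largest rises. Dmac2, taken into this list by its older name, is an assembly factor of complex I. Without background correction Rpl37 (0.30), Rpl21 (0.25), Rpl3l (-0.63), Ndufb8 (-0.49) and the first Rpl7l1 probe (-0.43) were closer to 0, and of the 6 fits that left out an array 1 kept the call of Rpl37, 3 that of Rpl21, 2 that of Rpl3l and 2 that of Cox7a1. The differences between these lists were not tested.

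**Figure D4:**
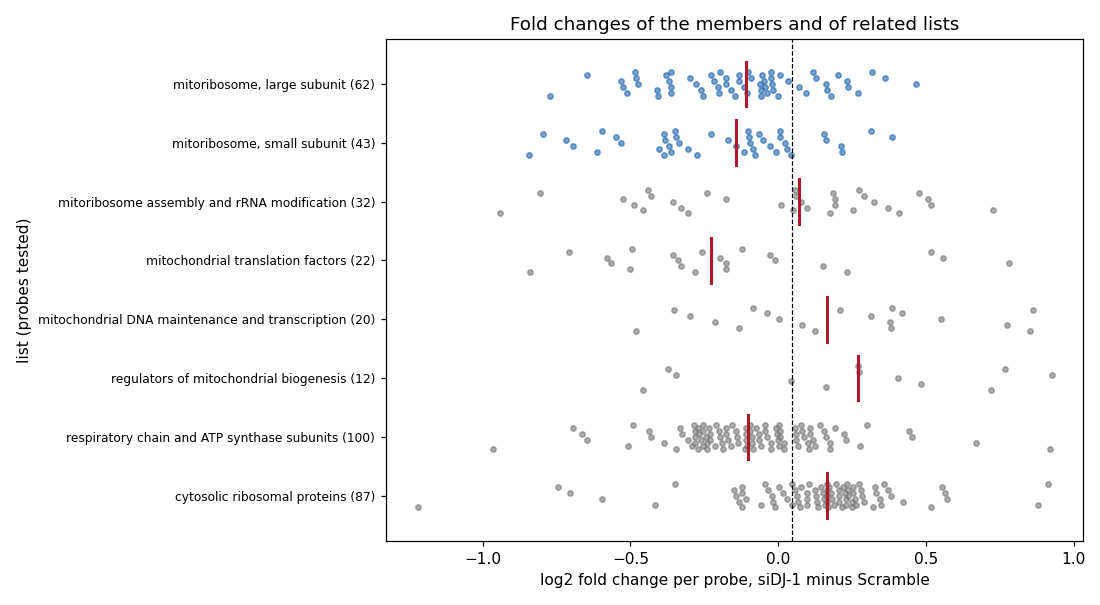
Log2 fold change (x axis) of each tested probe in the large and small subunits of the mitochondrial ribosome (blue) and in 6 related lists (grey), with the number of probes in brackets, a red bar at each median and a dashed line at the median of all tested probes (0.05). Medians were -0.11 and -0.14 for the subunits, -0.10 for the respiratory chain and ATP synthase and 0.16 for cytosolic ribosomal proteins; with the 75th percentile shift they were -0.06, -0.10, 0.04 and 0.36.

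Among muscle markers the deepest falls were Myl1 (-1.20, with another probe at -0.01), Actn2 (-1.12 and -1.03) and 3 probes of Myh8 (-1.11, -1.03 and -1.01), of which the second Actn2 probe kept its call in 1 of the 6 fits that left out an array. Probes listed under Ttn, the giant sarcomere protein, disagreed, with called values from -0.76 to 1.77. Another called rise (0.76, and 0.24 without background correction) was detected on 1 Scramble array and 3 siDJ-1 arrays. It kept its call in 1 of the 6 fits that left out an array. The probes at 1.77 and 0.76 were the 2 myotube marker probes called higher. Both matched no RefSeq gene and were taken as Ttn only by the file's name. Of 9 tested probes of undifferentiated and cycling cell markers 0 were higher and 2 lower, Mcm3 (-0.92, and -0.30 without background correction, detected on 3 Scramble arrays and 1 siDJ-1 array) and Ccnb1 (-0.57), although 6 of the 9 were above 0 and the median was 0.20. Their summed normalized signal was 4964, 5278 and 4808 in Scramble and 4631, 5283 and 4859 in siDJ-1 myotubes, with overlap between groups and with Cdk1 as the brightest gene, itself higher on each siDJ-1 array but not called (0.30, adjusted p = 0.0713).

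**Figure D5:**
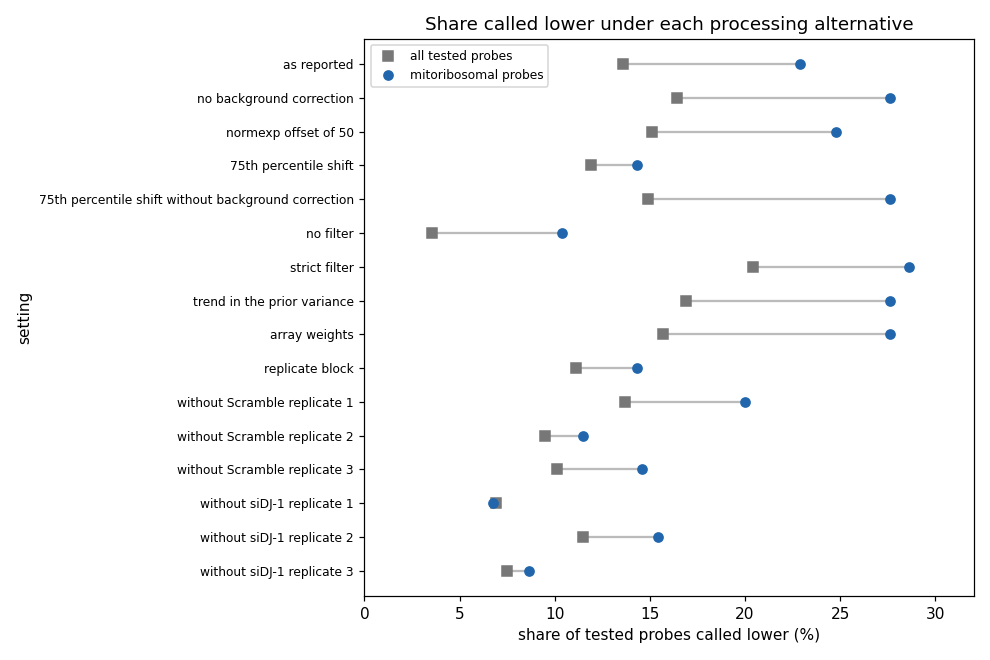
Share of tested probes called lower (x axis, percent) among the mitoribosomal probes (blue circles) and among all tested probes (grey squares), under each processing alternative (y axis). The member share was 22.9% against 13.6% as reported, and without siDJ-1 replicate 1 it was 6.73% against 6.91%.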

How the data were processed

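The authors hybridized 6 RNA samples to an Illumina Mouse WG-6 BeadChip and deposited, for each probe and array, the mean bead intensity, its error between beads, how many beads there were and a detection p-value against negative control beads, exported by GSGX 1.9.0 without normalization or background subtraction. Here limma 3.58.1 in R 4.3.3 corrected the background (normexp, controls inferred from the detection p-values, offset 16), quantile normalized, took log2, kept a probe where at least 3 arrays had a detection p under 0.05 and compared siDJ-1 with Scramble by lmFit and eBayes, with Benjamini-Hochberg adjustment over every tested probe. The code was tested on simulated data. Of 45281 probes 32345 matched a RefSeq gene (GRCm38.p6) by Entrez number or accession, as did 114 of the 125 member probes; the file's name was kept otherwise. Members and lists were chosen with earlier results of these data known. Genes named were Park7, members with a called probe (up to 15 largest in each direction) or with probes that disagreed, Mrps18a, Mrps18b, Mrps18c, Mrpl12, Mrpl45, Mrpl44 and Mrps36 (not analysed here), and up to 3 called genes of each other list in each direction. Alternatives changed the background correction, offset, scaling, filter, variance model, array weights, replicate block and arrays used.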

Additional observations from a re-analysis of the deposited data

How the results depend on the processing

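Park7 was called lower under every alternative, from -1.24 to -1.003, and the member median was below 0 under every alternative. Counts moved more. Members called higher (3) numbered 5 without background correction (4.76%, beside 18.8% of all tested probes) and 7 with the 75th percentile shift (6.67%, beside 18.3%). They numbered 9 with that shift and no background correction (8.57%, beside 20.3%) and 8 with a trend in the prior variance (7.62%, beside 19.3%). Without a filter 1 was higher (0.8%, beside 4.21%). Members called lower (24) numbered 15 with the 75th percentile shift (14.3%, beside 11.9% of all tested probes). Without a filter they numbered 13 (10.4%, beside 3.56%), where 3519 probes were called across the array (5387 as reported). Other settings gave more falls. There were 29 (27.6%) without background correction, with the 75th percentile shift and no background correction, with a trend and with array weights. Beside these stood 16.4%, 14.9%, 16.9% and 15.7% of all tested probes. With the strict filter 28 were lower (28.6%, beside 20.4%). Averaged genes called higher (2) numbered 6, 6, 8 and 8 in the order of the first 4 settings, 4 with the strict filter and 0 without a filter, and those lower (18) numbered 11 with the 75th percentile shift and 11 without a filter. The member median was -0.0677 with the 75th percentile shift and -0.0676 with that shift and no background correction. The large subunit median (-0.11) was -0.0813 without background correction, -0.0646 and -0.0517 with the 75th percentile shift with and without background correction, -0.0878 without a filter and -0.134 with array weights.

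With each array left out in turn, probes called across the array ranged from 2444 to 5302, members called higher from 0 to 3 and lower from 7 to 21, averaged genes called higher from 0 to 2 and lower from 10 to 17. Medians ranged from -0.168 to -0.115 for members, from -0.139 to -0.106 for the large subunit and from -0.195 to -0.119 for the small subunit. Of the 27 called member probes 20 lost the call without at least 1 array. Uncalled sister probes changed sign, 1 of Mrps10 (0.0414 with the 75th percentile shift) and, with an array left out, 2 of Mrpl49 (from -0.302 to 0.0205 and from -0.368 to 0.186) and 1 of Mrps25 (from -0.209 to 0.0159). The cause was not tested.

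Same-numbered arrays correlated at 0.0537, 0.0474 and 0.0199 in their deviations from the group means, each best with its own number, a hint from the data and not from the labels, which do not say whether a number stands for a shared culture or day. With the replicate block 4350 probes were called across the array, 1 member higher (0.952%, beside 13.2% of all tested probes) and 15 lower (14.3%, beside 11.1%), and 0 averaged genes higher. Alternatives added after seeing the data were subunits by position and the 98 tested members matched to RefSeq, of which 3 were higher and 24 lower. Members near background, detected on 1 or 2 arrays of a group, limit what their values show.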
